A study of Mus musculus with 3 samples.

Results

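The regions described here are the mTOR peaks of the 3-Mb window from 21 to 24 Mb of mouse chromosome 13 on build mm9, a stretch known for large arrays of tRNA genes and histone genes. The window was divided into 200-bp bins, and a bin was called where the mean mTOR coverage exceeded 2.0 and, with 0.2 added to both values, was at least 3 times the IgG coverage. Adjacent called bins were merged into a peak. The rule gave 61 mTOR peaks in the window, of 438 on chromosome 13 and 9108 on chromosomes 1 to 19, X and Y. The peaks were chosen by their measured mTOR and IgG coverage. Their mTOR levels, their mTOR to IgG ratios and the intervals of these ratios are therefore a description with no test. The ERRα values were not used by the rule, but the IgG values were.

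The data came from chromatin immunoprecipitation and sequencing (ChIP-seq) of liver from C57Bl/6 males 2 to 3 months old. The 3 groups, of 1 library each, were chromatin precipitated with an antibody to mTOR, chromatin precipitated with an antibody to ERRα, and a control made with rabbit IgG. The labels name no treatment and no altered allele. The 2 ChIP libraries each combined 8 immunoprecipitations from chromatin of 26 livers, while for IgG no such number is stated. With 1 library per group there is no replicate check, no test between groups is possible, and each interval below covers counting error only.

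mTOR is a serine/threonine kinase that couples nutrients to growth, and one of its known outputs is transcription of tRNA genes by RNA polymerase III, whose repressor MAF1 it phosphorylates. A tRNA gene carries its promoter inside the transcribed sequence, as an A box and a B box that the factor TFIIIC binds. Replication-dependent histone genes lie in clusters, are transcribed by RNA polymerase II mostly in S phase, and their messages end in a stem-loop. ERRα is a nuclear receptor that binds the sequence TNAAGGTCA and is known in liver for its genes of mitochondrial energy metabolism.

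The RefSeq gene table for GRCm38.p6 listed 430 tRNA genes, of which 105 were on chromosome 13 and 53 on the next richest, chromosome 6. It was used for gene order only, since its build differs from that of the tracks. From n-TEctc11 to H2ac1 it listed 314 genes in order: 104 tRNA genes, 56 histone genes, 75 genes and pseudogenes of the Vmn1r family of vomeronasal receptors and 79 others. They fell into a block of 27 tRNA genes, a block of 19 histone genes from H2bc13 to H4bc24, 31 tRNA genes, 5 histone genes from H2ac12 to H2bc11, 1 tRNA gene, the 75 Vmn1r genes, 45 tRNA genes and, last, 32 histone genes from H4c8 to H2ac1. The 104 tRNA genes covered 35 anticodons and 17 amino acids, with alanine and serine (12 genes each) and methionine (11 genes) the most frequent. The histone genes comprised 15 H2A, 14 H2B, 11 H4, 9 H3 and 6 linker histone H1 genes by symbol, with H4bc24 as the remaining entry. Which gene lies under which mTOR peak was not analysed here, because no mm9 annotation was used.

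To show what sequences such arrays hold, 4 histone promoters and 1 tRNA-derived hairpin from the RefSeq tables are given, 5′ to 3′ on the strand of the gene. The promoters are the 250 bases before the start of the gene, and capitals mark CCAAT or its complement ATTGG and TATAAA or its complement TTTATA. In the hairpin of the microRNA Mir1983, capitals mark the 94 of 132 bases that the table also assigns to the isoleucine tRNA gene n-TItat14.
H2ac13 (histone H2A): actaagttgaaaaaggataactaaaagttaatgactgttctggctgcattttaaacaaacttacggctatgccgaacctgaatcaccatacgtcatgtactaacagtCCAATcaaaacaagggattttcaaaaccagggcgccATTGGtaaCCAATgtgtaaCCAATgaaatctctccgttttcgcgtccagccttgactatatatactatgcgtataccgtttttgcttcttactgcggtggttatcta
H3c10 (histone H3): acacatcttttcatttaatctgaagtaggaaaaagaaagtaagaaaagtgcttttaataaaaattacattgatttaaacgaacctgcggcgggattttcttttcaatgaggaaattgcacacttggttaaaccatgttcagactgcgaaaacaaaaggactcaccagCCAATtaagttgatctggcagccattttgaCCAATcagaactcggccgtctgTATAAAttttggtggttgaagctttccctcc
H4c11 (histone H4): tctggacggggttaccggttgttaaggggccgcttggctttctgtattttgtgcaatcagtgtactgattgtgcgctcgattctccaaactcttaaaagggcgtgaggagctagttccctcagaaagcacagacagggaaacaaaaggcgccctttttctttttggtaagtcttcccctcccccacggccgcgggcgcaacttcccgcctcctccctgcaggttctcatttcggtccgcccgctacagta
H1f5 (linker histone H1): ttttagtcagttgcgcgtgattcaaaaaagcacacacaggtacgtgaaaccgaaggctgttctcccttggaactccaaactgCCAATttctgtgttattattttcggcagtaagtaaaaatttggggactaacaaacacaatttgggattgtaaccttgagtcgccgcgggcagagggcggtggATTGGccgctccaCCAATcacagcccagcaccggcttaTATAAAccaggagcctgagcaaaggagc
Mir1983 (hairpin over n-TItat14): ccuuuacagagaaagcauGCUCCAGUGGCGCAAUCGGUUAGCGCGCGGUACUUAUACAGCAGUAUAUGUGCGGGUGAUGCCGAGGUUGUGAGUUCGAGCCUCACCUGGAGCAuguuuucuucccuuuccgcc

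The promoters of H2ac13, H3c10 and H1f5 held 4, 3 and 4 of the marked matches, and that of H4c11 held 0. Promoter entries of 300 bp were found for 51 of the 56 histone genes, 52 entries in all, some of which overlap: the entries of H2ac13 and its divergent neighbour H2bc13 are reverse complements of each other over 272 bases. CCAAT on either strand was present in 44 of the 52 (84.6%), against 37.4% of the 32851 mouse promoters in the table. TATAAA on either strand was present in 31 (59.6%), against 13.6%. The ERRα sequence TNAAGGTCA was present in 0, against 1.28%, and GGTTCGA, the letters of the B box, in 1 (1.92%), against 0.910%. The hairpin of Mir1983 holds GUUCGA 1 time, within the bases of the tRNA. These are letter matches in windows that are not tied to any mTOR peak.

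The 61 mTOR peaks took 210 of the 15000 bins of the window, 42 kb in all, and 883 bins had no coverage. Of the covered bins 1.49% were called in the window and 0.118% in the rest of chromosome 13; by the same rule with mTOR and IgG exchanged the shares were 0 and 0.00144%. Per covered megabase there were 21.6 peaks in the window and 3.39 among the 377 peaks of the rest of the chromosome, a ratio of 6.37 with a counting interval of 4.78 to 8.37 (95%). The size of this ratio depends on the thresholds more than the interval shows: it was 12.9 with a minimum fold of 5, 17.7 with a minimum level of 4.0 and 4.13 without IgG. The interval also counts peaks as independent, although most peaks of the window lay in close runs. Since the window was chosen with results of these data known, the ratio and its interval are a description. The window made up 2.48% of the covered chromosome and held 13.9% of its mTOR peaks. It held 51.1% of the mTOR coverage in excess of IgG within peaks, so that the window differed from the rest of the chromosome more in summed signal than in number of peaks. Peaks took up 24.7% of all mTOR coverage of the window and 0.829% of that of the rest.

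Chromosome 13 was divided into 39 windows of 3 Mb, and the other 38 held a median of 8 mTOR peaks and at most 23. At most 4 peaks of level 10 or more lay in any of them, against 32 in the window of the arrays. ERRα peaks, called by the same rule, did not follow this order: the window held 25, the rank of 18 among the 39, while the others held 0 to 55 with a median of 20.

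**Figure D1:**
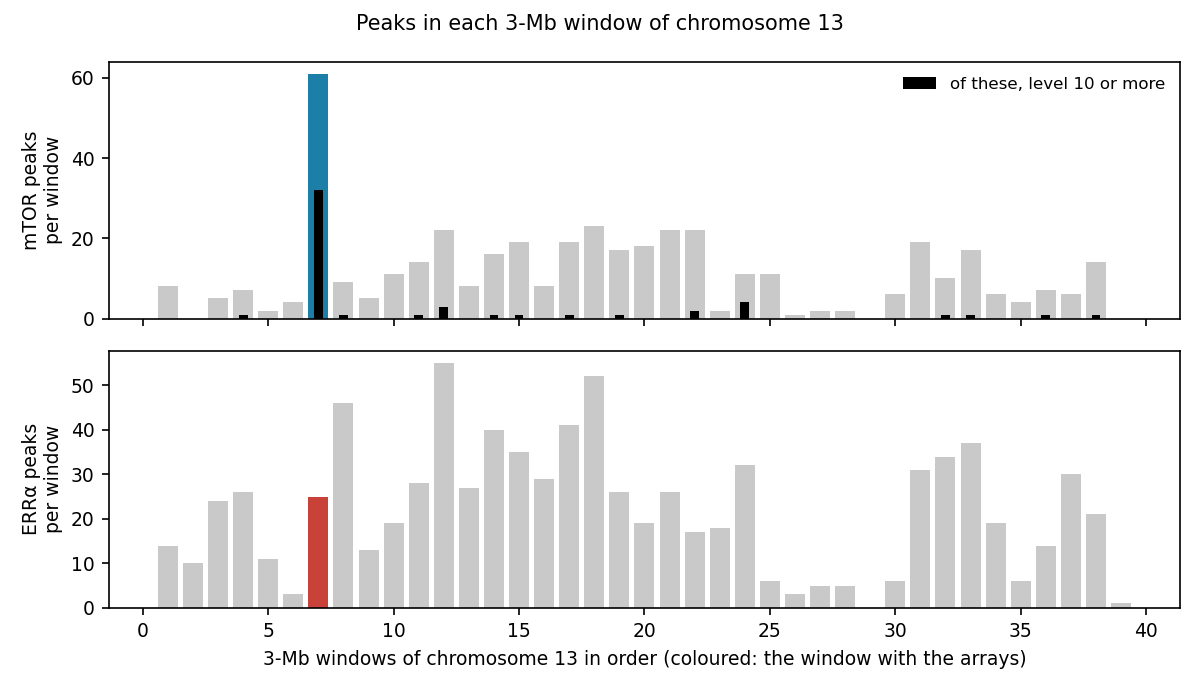
Number of mTOR peaks (upper) and ERRα peaks (lower) in each 3-Mb window along chromosome 13, with the window of the arrays coloured and mTOR peaks of level 10 or more in black. The coloured bar reaches 61 mTOR peaks, 32 of them of level 10 or more, against at most 23 and 4 elsewhere, while its 25 ERRα peaks are within the range of 0 to 55 of the other windows.

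The level of a peak is the coverage of its highest bin, in the authors' scaling to 10000000 tags per library. The 61 levels ranged from 2.18 to 70.5 with a median of 10.5 and quartiles of 5.16 and 20.3, against a median of 3.06 and quartiles of 2.43 and 4.27 in the rest of chromosome 13. By level, 15 peaks were between 2 and 5, 14 between 5 and 10, 14 between 10 and 20, 12 between 20 and 40, and 6 above 40. The levels thus spread over a wide range with no value around which most peaks gathered. A level of 10 or more was reached by 32 of the 61 peaks (52.5%) and by 20 of the 377 others (5.31%). A level of 20 or more was reached by 18 (29.5%) and by 2 (0.531%). The fold of the rule was 10 or more in 35 (57.4%) and in 33 (8.75%). Of the 10 highest mTOR peaks of chromosome 13 the window held 9, of the 20 highest it held 18, and of the 50 highest it held 31.

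**Figure D2:**
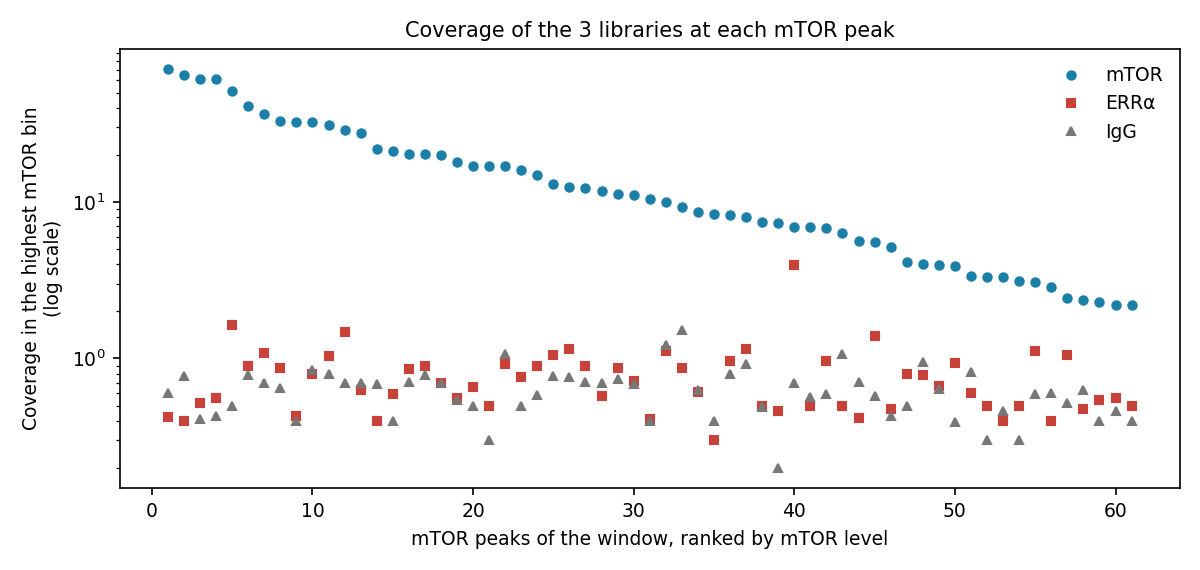
Coverage of the mTOR, ERRα and IgG libraries (log scale) in the highest mTOR bin of each of the 61 mTOR peaks, ranked by mTOR level. The mTOR values fall from 70.5 to 2.18, while the IgG values stay between 0.2 and 1.51 and the ERRα values between 0.3 and 3.94 across all ranks.

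The highest peak, chr13:22031801-22033200, had a level of 70.5 for mTOR, 0.424 for ERRα and 0.6 for IgG. Its mTOR level was 117 times the IgG level, with a counting interval of 49.4 to 296. The next, chr13:21252401-21253600, had levels of 65.0, 0.4 and 0.768 for mTOR, ERRα and IgG, an mTOR to IgG ratio of 84.6 (41.2 to 214). In both, mTOR alone stood high, and ERRα was below IgG by less than counting error. The peak at chr13:23537401-23539000 had levels of 60.8, 0.523 and 0.412, and that at chr13:23608801-23610400 had 60.7, 0.558 and 0.428. Their mTOR to IgG ratios, 148 (54.4 to 516) and 142 (54.3 to 515), were the highest of the 61 peaks. The IgG side of these ratios rests on few tags: over the 61 highest bins it was an estimated 1.84 to 13.9 tags, with a median of 5.78.

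The peak at chr13:23610601-23611800, whose edge lay 200 bp after that of the previous peak, had levels of 51.4 for mTOR, 1.64 for ERRα and 0.5 for IgG. It was the sole peak among the 10 highest in which ERRα stood above IgG beyond counting error. The peak at chr13:23558601-23559200 had levels of 40.8, 0.899 and 0.79, and reached this level in a width of 600 bp. The peak at chr13:21261201-21262400 had levels of 36.7, 1.08 and 0.698. Of the remaining peaks among the 10 highest, chr13:23529401-23531000 had levels of 32.8, 0.869 and 0.646. The peak at chr13:23528001-23529200, 200 bp before it, had levels of 32.6, 0.426 and 0.4. The peak at chr13:22066601-22067400 had levels of 32.2, 0.79 and 0.848. In all 10, the lower limit of the mTOR to IgG ratio was 18.6 or more. The rule and the ranking used these same values, so this limit was in part fixed in advance.

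For comparison, the 5 highest mTOR peaks of the rest of chromosome 13 began with chr13:97960401-97960600, with levels of 49.6 for mTOR, 16.4 for ERRα and 15.7 for IgG. All 3 libraries were high there, unlike at any peak of the window, whose highest IgG bin had a coverage of 2.50. The other 4 were chr13:37723801-37724800 (mTOR level 23.9), chr13:34945601-34946400 (17.5), chr13:37780601-37781200 (17.4) and chr13:99570401-99571200 (15.5). Their IgG levels lay between 0.434 and 1.29 and their ERRα levels between 0.351 and 1.17, values like those at the peaks of the window.

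The peaks of the window fell into 9 runs when a run was ended by a gap of more than 50 kb between neighbours. Of these, 3 runs held 52 of the 61 peaks and 93.2% of the excess of mTOR over IgG in the peaks. The remaining 6 runs held 1 to 3 peaks each.

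**Figure D3:**
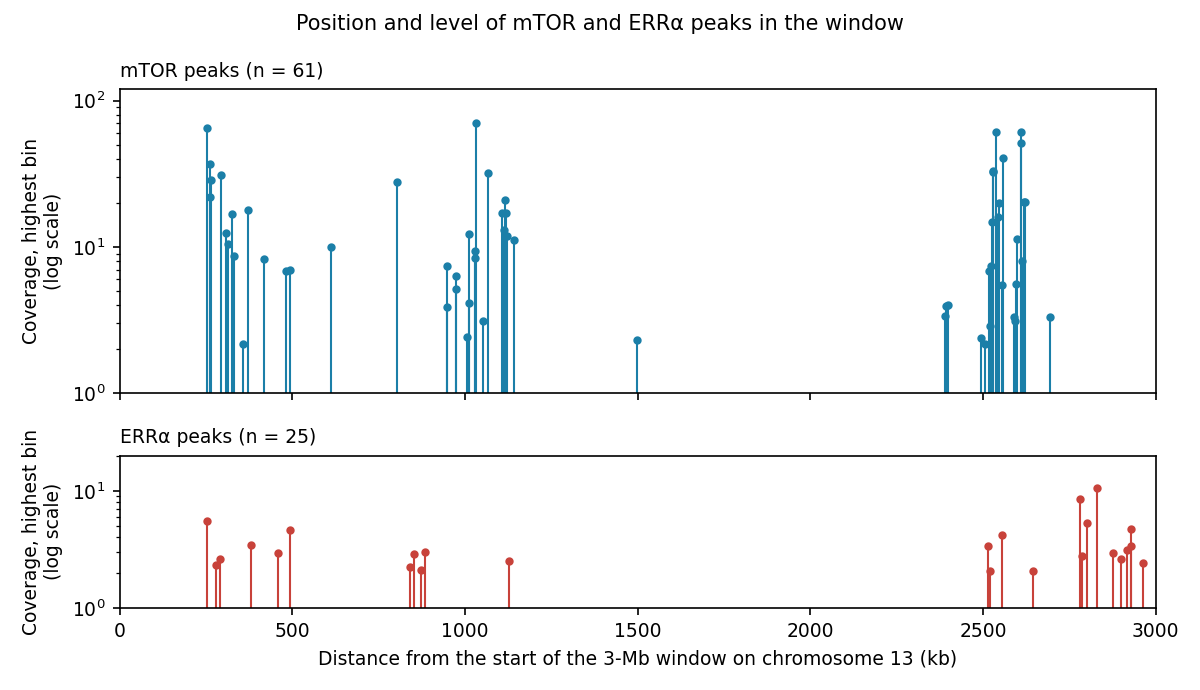
Position of the 61 mTOR peaks (upper) and 25 ERRα peaks (lower) along the window, in kb from its start, with the height of each line showing the coverage of the highest bin (log scale). mTOR peaks crowd into 3 stretches of 129.8 to 196 kb with a gap of 893 kb before the last, and 10 of the ERRα peaks lie in the 306 kb after the last mTOR peak.

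The run at chr13:21252401-21418800 held 12 peaks over 166.4 kb and 26.7% of the excess. Its peaks had a median level of 17.4, and 9 of them reached 10; the strongest, of level 65.0, opened the run and was followed by peaks of 21.9, 36.7 and 28.7. The weakest, chr13:21356401-21356600, had levels of 2.18 for mTOR, 0.563 for ERRα and 0.462 for IgG. The largest gap between neighbours in the run was 46600 bp and the smallest 800 bp.

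The run at chr13:21947001-22143000 held 18 peaks over 196 kb and 22.2% of the excess. Its median level of 10.2 was the lowest of the 3 large runs, although the highest peak of the window lay in it. Of its 18 peaks 9 reached level 10, and 3 reached 20. Its last 6 peaks, from chr13:22107201-22108000 to chr13:22142201-22143000, all had levels between 11.1 and 21.02. Earlier in the run, the levels were more unequal: the peak of 70.5 followed 2600 bp after a peak of 9.32 at chr13:22028601-22029200.

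The run at chr13:23492801-23622600 was the densest of the 3, with 22 peaks over 129.8 kb, or 16.9 per 100 kb, against 7.21 and 9.18 in the other two. It held 44.3% of the excess. Its median level was 13.1, with 12 peaks of level 10 or more and 9 of level 20 or more. Of the 6 peaks above level 40 in the window it held 4. Between the peaks of this run the median bin had a coverage of 0.602 for mTOR, 0.6 for ERRα and 0.6 for IgG. The medians of the 3 libraries were thus close, in bins that the rule had left uncalled, which in part fixes their low mTOR coverage. In the run of 12 peaks the corresponding medians were 0.6, 0.552 and 0.6, and in the run of 18 peaks 0.6, 0.6 and 0.584.

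Between the first and the second of these runs lay 2 peaks at chr13:21479801-21494400 and 2 peaks alone. Of the latter, chr13:21802201-21803200 had levels of 27.6 for mTOR, 0.625 for ERRα and 0.7 for IgG. It was the strongest peak outside the 3 large runs, 189.6 kb from its neighbour on one side and 143.8 kb on the other. The other, chr13:21611801-21612600, had levels of 10.03, 1.12 and 1.22. The highest of the pair in the short run, chr13:21493401-21494400, is described with ERRα below.

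After the second large run came chr13:22497401-22497600 alone, with levels of 2.31, 0.539 and 0.4 for mTOR, ERRα and IgG. Between it and the next peak lay the longest stretch with no mTOR peak, chr13:22497601-23390600, of 893 kb. Mean coverage there was 0.398 for mTOR, 0.407 for ERRα and 0.441 for IgG, its highest mTOR bin had a coverage of 1.78, and it held no ERRα peak either. The libraries covered 86.4% to 87.1% of its bases. In the gene table a block of 75 Vmn1r genes stands between tRNA genes, but whether it is this stretch was not analysed. The stretch of 354.4 kb before the lone peak also held no ERRα peak.

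A run of 3 peaks followed at chr13:23390601-23399600, all low, the highest of them, chr13:23399401-23399600, with levels of 3.996, 0.784 and 0.945. The last mTOR peak of the window, chr13:23693601-23694000, had levels of 3.32, 0.4 and 0.459 and lay 71 kb after the densest run. These 2 runs and the lone peak of 2.31 held no peak above level 5.

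Because tRNA genes and histone genes occur in near-identical copies, tags may match several of them, and how the authors treated such tags is not stated in the labels or headers. The level of a single peak is uncertain to that extent, and the part of such tags in the levels was not tested.

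Peak width, counted in called bins, ranged from 200 to 1600 bp with a median of 600 bp, against 200 bp in the rest of chromosome 13. There were 7 peaks of 200 bp, 12 of 400, 18 of 600, 12 of 800, 2 of 1000, 6 of 1200, 1 of 1400 and 3 of 1600 bp. The widest were chr13:23529401-23531000, chr13:23537401-23539000 and chr13:23608801-23610400, all in the densest run. This width grows with the level, since more bins of a tall peak pass a fixed minimum: over the 61 peaks Spearman's rho between level and width was 0.859. The width at 50% of the maximum, taken from coverage per base, does not depend on the minimum in this way. Its median was 349 bp in the window (quartiles 318 and 424, range 184 to 653) and 351 bp in the rest, so the peaks of the window were taller, with a median breadth close to that of the rest. Its rho with the level was -0.265 over the 61 peaks.

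Restricting both groups to levels between the quartiles of the window left 31 peaks in the window and 70 in the rest. Their median widths were then both 600 bp, and their median widths at 50% of the maximum were 357 and 344 bp. Over peaks of all levels, more than 1 maximum, separated by a dip of at least 20% of the peak, was found in 7 of the 61 peaks (11.5%) and in 25 of the 377 others (6.63%). Maxima were sought only within called bins, so these shares can depend on width and level. Among the 31 and 70 peaks of like level, none of the window had more than 1 maximum, while the rest had up to 2. The peaks chr13:21252401-21253600 and chr13:23608801-23610400 each had 3 maxima, spanning 465 and 946 bp. In the latter, the maxima were thus spread over more than the usual breadth of a peak.

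Mean coverage within 100 bp of the maximum was 17.3 for mTOR, 0.753 for ERRα and 0.621 for IgG over the 61 peaks. It was 4.35, 1.10 and 0.631 over the 377 peaks of the rest. The mean of mTOR was thus higher in the window and that of ERRα lower, with IgG close. Taken as the median over peaks at each position, ERRα was 0.652 in the window and 0.685 in the rest, so the difference in ERRα was mainly one of means. From 1000 to 2000 bp away, mean mTOR coverage was still 1.88 in the window, against 0.703 in the rest. The mean over positions of the median coverage at that distance was 0.642 and 0.617, so the higher mean of the window was not shared by its median peak.

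**Figure D4:**
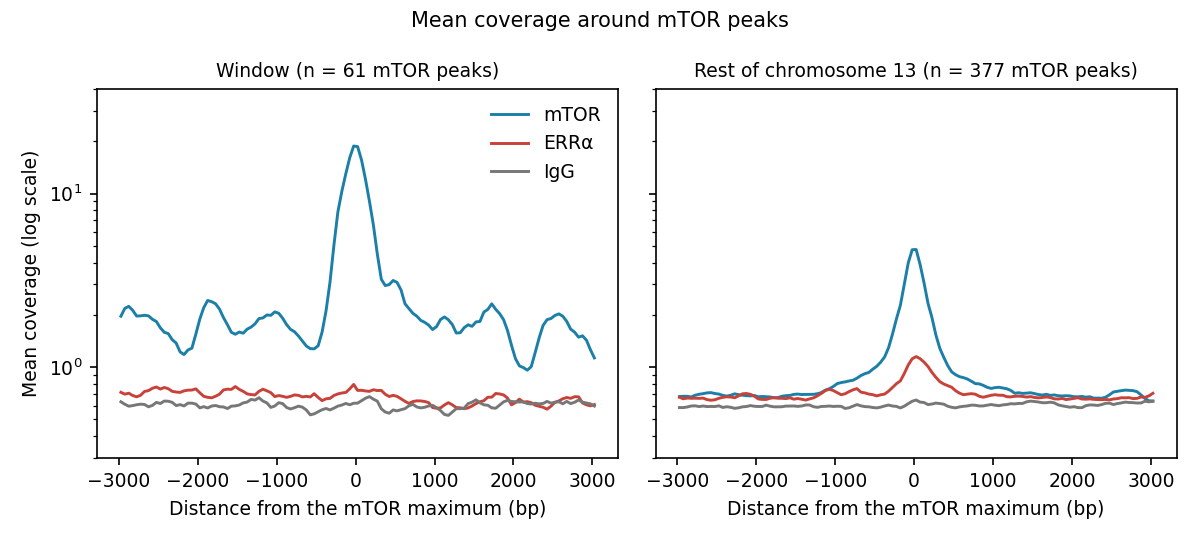
Mean coverage (log scale) of mTOR, ERRα and IgG by distance from the maximum of the mTOR peaks, for the 61 peaks of the window (left) and the 377 peaks of the rest of chromosome 13 (right). Within 100 bp of the maximum mTOR averages 17.3 on the left and 4.35 on the right, while ERRα averages 0.753 and 1.10.

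Neighbouring maxima in the window were a median of 7142 bp apart (quartiles 2855 and 22455 bp), against 101250 bp (28551 and 257108 bp) in the rest of the chromosome. Of the 60 pairs of neighbours, 28 (46.7%) were under 5 kb apart, against 33 of 375 pairs (8.80%). Under 10 kb the counts were 33 (55%) and 51 (13.6%). The spacing was uneven: 11 pairs were under 2 kb apart and 8 over 50 kb. From edge to edge the gaps had a median of 6000 bp.

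The closest pair was chr13:21947001-21947400 and chr13:21947601-21948000, whose maxima were 743 bp apart and whose mTOR levels were 3.88 and 7.44. The edges of 3 pairs were 200 bp apart, a single uncalled bin. Besides the closest pair, these were the peaks of 32.6 and 32.8 and those of 60.7 and 51.4 in the densest run, with maxima 1118 and 1862 bp apart. The peaks of 32.6 and 32.8 thus had close levels, and those of 60.7 and 51.4 less so. Other near neighbours differed more, such as the peaks of 9.32 and 70.5 with edges 2600 bp apart. The farthest pair was chr13:22497401-22497600 and chr13:23390601-23390800, with maxima 893157 bp apart.

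**Figure D5:**
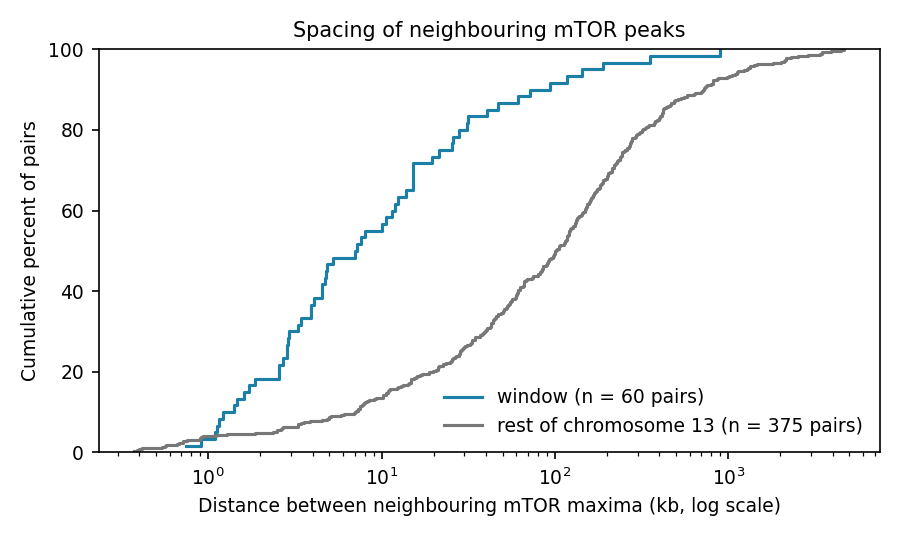
Cumulative percent of neighbouring pairs of mTOR peaks by the distance between their maxima (kb, log scale), for 60 pairs in the window and 375 pairs in the rest of chromosome 13. The window curve reaches 46.7% by 5 kb, where the curve of the rest has reached 8.80%.

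ERRα coverage at the mTOR peaks was near that of IgG. In the highest mTOR bins the ERRα level had a median of 0.668 (range 0.3 to 3.94) and the IgG level a median of 0.63 (range 0.2 to 1.51). The ERRα to IgG ratio had a median of 1.20, with ERRα above IgG in 41 of the 61 peaks and below it in 20. In the rest of chromosome 13 the median ratio was 1.15, with ERRα above IgG in 226 of the 377 peaks. The rest held mostly lower mTOR peaks. Among peaks with mTOR levels between the quartiles of the window, the median was 1.15 in the window (31 peaks, 0.991 to 1.32). In the rest it was then 0.927 (70 peaks, 0.839 to 1.02). At level 10 or more the medians were 1.19 and 1.01. At like mTOR levels the median was thus higher in the window, with intervals that overlapped. Summed over the 61 bins, ERRα was 1.25 times IgG (1.09 to 1.44), against 1.75 times (1.67 to 1.86) over the 377 bins of the rest. The summed ratio was thus lower in the window, whereas the medians over all peaks were close. The counting intervals of the sums leave out the spread between peaks, so they do not measure a difference between the groups. In the rest the ERRα level had an upper quartile of 1.0 and a maximum of 33.6, against 0.926 and 3.94 in the window. Single high bins can therefore weigh on the sum of the rest. In bins outside the peaks the ratio of the mean levels was 1.01 in the window and 0.992 in the rest. Because the rule divided by IgG, it could favour bins with low IgG, which would raise ERRα to IgG ratios at peaks. The size of this effect was not tested, so ratios at and outside peaks are not compared like for like.

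Taken 1 peak at a time, the counting interval of the ERRα to IgG ratio lay above 1 in 2 of the 61 peaks (3.28%) and below 1 in 0. In the rest of chromosome 13 it lay above 1 in 31 of the 377 peaks (8.22%). In bins outside the peaks the shares above 1 were 0.791% in the window and 0.767% in the rest, and the shares below 1 were 0.167% and 0.215%. The same limit on the choice of bins by IgG holds for the shares at peaks. With a median of 5.78 IgG tags per bin, an ERRα level modestly above IgG was not detectable at a single peak. For mTOR against ERRα the interval lay above 1 in all 61 peaks, an outcome largely fixed by taking the highest mTOR bins of mTOR peaks.

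The 5 peaks with the highest ERRα to IgG ratios began with chr13:21493401-21494400, with levels of 6.96 for mTOR, 3.94 for ERRα and 0.7 for IgG, an ERRα to IgG ratio of 5.63 (2.53 to 17.4). It was the sole mTOR peak of the window that overlapped an ERRα peak, chr13:21494001-21494600, and the sole one with an ERRα level over 2. The peak chr13:23610601-23611800 followed, with a ratio of 3.27 (1.04 to 10.4). The remaining 3 were chr13:23555201-23555800 with 2.40 (0.884 to 9.21), chr13:21947001-21947400 with 2.38 (0.582 to 9.27) and chr13:23523201-23523600 with 2.31 (0.379 to 24.3). In these 3 the interval held 1, and in the last the ratio rests on the lowest IgG level of the 61, 0.2. The ERRα level did not follow the mTOR level: Spearman's rho over the 61 peaks was 0.129 between these levels, and 0.450 between the ERRα and IgG levels, all taken from the same bins.

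Overlap with an ERRα peak was found for 1 of the 61 mTOR peaks (1.64%) and for 18 of the 377 others (4.77%). An ERRα peak within 1000 bp of the edge was found for 4 (6.56%) and 45 (11.9%). Of all covered bins, 0.305% in the window and 0.285% in the rest were called for ERRα. The share of all positions that lie as near to an ERRα peak was not computed, so these counts are not read as few or many. The median distance to the nearest ERRα peak was 23000 bp in the window and 24200 bp in the rest. Against its own flanks, 2 to 5 kb away, ERRα in the highest mTOR bins was a median of 1.07 times as high in the window and 1.03 times in the rest, values that do not set the window apart. Summed over peaks, the rise of ERRα over its flanks was 0.870% of that of mTOR in the window and 12.2% in the rest of the chromosome, where the ERRα level in these bins reached 33.6, against 3.94 in the window. The rule used the mTOR side of this share, and mTOR levels were higher in the window. The lower share there was thus in part fixed in advance.

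The 25 ERRα peaks of the window corresponded to 0.305% of its covered bins, against 0.285% in the rest of chromosome 13, where there were 829. Per covered megabase there were 8.85 and 7.46, a ratio of 1.19 with a counting interval of 0.764 to 1.76. With a minimum fold of 5 or a minimum level of 4.0 the ratio was 0.880 or 0.825, so no direction can be given. At none of the 25 was the mTOR level above the ERRα level, an outcome largely fixed by taking the highest ERRα bins of ERRα peaks. The mTOR to IgG interval lay above 1 at 3 of them (12%), against 6.15% of the 829.

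The ERRα peaks of levels 10.7 and 8.57 lay away from the mTOR peaks, but the next highest, of 5.58, ended 800 bp before one. The peak chr13:23830601-23831600 had levels of 10.7 for ERRα, 1.42 for mTOR and 0.684 for IgG, and lay 136600 bp from the nearest mTOR peak. The peak chr13:23779801-23780400 had levels of 8.57, 0.613 and 0.5, and lay 85800 bp from one. In all, 10 of the 25 lay in the last 306 kb of the window, where no mTOR peak was called. Within 5 kb of an mTOR peak there were 6, and within 1 kb 4. Of these 4, chr13:21251201-21251600 had levels of 5.58 for ERRα, 1.37 for mTOR and 1.27 for IgG, and ended 800 bp before the mTOR peak of 65.0, where ERRα was 0.4. Another, chr13:21291601-21291800, had an ERRα level of 2.60 and an mTOR level of 0.628, and touched the mTOR peak chr13:21291801-21292600, of mTOR level 30.9 and ERRα level 1.03.

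Over the whole window, mean mTOR coverage was 0.680 and mean IgG coverage 0.524, against 0.553 and 0.558 in the rest of the chromosome. Outside the mTOR peaks, mean mTOR coverage was 0.557 in the window and 0.582 in the rest, and mean IgG coverage 0.561 and 0.593. The ratio of mTOR to IgG was therefore 0.993 in the window and 0.982 in the rest. With bins within 1 kb of a peak left out it was 0.977 and 0.979. The ratio in the window was thus 1.01 times that of the rest, with a counting interval of 1.0001 to 1.02, when all bins outside peaks were counted. It was 0.998 times that of the rest without the bins within 1 kb, a choice added after seeing the data, so no direction can be given. These bins are the ones that the rule on mTOR and IgG left uncalled, which in part fixes their low mTOR coverage.

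The values nearest the thresholds lay close to them on both sides. Just inside the minimum level were peaks of level 2.18 at chr13:23505001-23505200, 2.18 at chr13:21356401-21356600 and 2.31 at chr13:22497401-22497600. Just outside were bins of 1.94 at chr13:21302801-21303000, 1.86 at chr13:21622801-21623000 and 1.83 at chr13:21272401-21272600. Just inside the minimum fold were peaks with highest bins at chr13:23493001-23493200 (3.10), chr13:23390601-23390800 (3.49) and chr13:21356401-21356600 (3.604). Just outside were bins at chr13:23960801-23961000 (2.95), chr13:21488201-21488400 (2.83) and chr13:23493401-23493600 (2.82). A minimum level of 2.0 stands for about 16.7 tags per bin in the mTOR library.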

How the data were processed

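ChIP-seq libraries for mTOR, ERRα and rabbit IgG from mouse liver, 1 each, were analysed. The deposited values are signal, tag coverage along the genome that the authors scaled to 10000000 tags per library, per the file headers, which give 62500000, 74200000 and 68800000 tags for mTOR, ERRα and IgG. On this scale 1 tag was worth 0.16, 0.135 and 0.145 units. BWA 0.5.9, MACS 1.4.1 and build mm9 are named, without a role, in the submitters' processing notes. Neither labels nor headers state the track program, the tag extension or the handling of duplicate and multiply matching tags (not given in the sources used here). Coverage summed to 149 to 150 bp per tag.

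Coverage was averaged over 200-bp bins (positions in no interval counted as 0), and peaks were called by the rule of the report, which was also applied to ERRα. Overlap meant 1 bp or more. Tags per bin were approximated from coverage, and ratios without pseudocount were given exact (Clopper-Pearson) 95% intervals, which cover counting error only. A run ended at a gap over 50 kb. The peak caller was tested on simulated data. Groups came from the sample titles.

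The peaks named were the 10 highest, the highest of each run, those overlapping an ERRα peak, the 5 with the highest ERRα to IgG ratio, the widest, the closest and farthest neighbours, 3 on each side of each threshold and the 5 highest of the rest of chromosome 13; a few neighbours were named beside them after their values were seen. The window, rule and lists were chosen with earlier results of these data known. No mm9 genome or annotation was used, so the planned distances to genes and motif searches around maxima were not made; promoters, the hairpin and gene order came from RefSeq tables for GRCm38.p6, and no coordinate was converted. Alternatives were another minimum fold or level, pseudocount, scaling, bin size and offset, merging, removal of bins high in IgG, no IgG, other overlaps and run gaps and flanks as background, and, added after seeing the data, exclusion of bins near peaks. Python 3.11.15, NumPy 2.4.6, pandas 2.3.3, SciPy 1.17.1 and Matplotlib 3.10.9 were used.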

Additional observations from a re-analysis of the deposited data

How the results depend on the processing

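Of 107 values recomputed for 11 results, 89 stayed within the 95% interval of the reported value (for counts, within 1.5 times it) and 18 did not; the cause was not tested. The number of mTOR peaks ranged from 49 to 69, and the median width was 600 bp under each alternative tried. The ratio of mTOR peak density between the window and the rest of chromosome 13, 6.37, was 12.9 with a minimum fold of 5, 17.7 with a minimum level of 4.0, 4.64 with the 99th percentile of IgG (1.41) as minimum level, 4.43 with 100-bp bins and 4.13 without IgG. The 25 ERRα peaks became 7 with a minimum fold of 5 and 7 with a minimum level of 4.0. The number of mTOR peaks overlapping an ERRα peak, 1, became 0 with a minimum level of 4.0, 2 with shifted bins, 2 with 100-bp bins, 2 without IgG and 4 when peaks within 1000 bp were counted. The mTOR to IgG ratio outside peaks, window against rest, was 1.01, and became 1.02 with a minimum fold of 5, 1.03 with a minimum level of 4.0, 0.958 without IgG, and 0.998 and 0.992 when bins within 1000 or 5000 bp of a peak were left out, which was added after seeing the data. The 9 runs became 17 with a gap of 20 kb. Depth limits single ratios to the few IgG tags per bin. No paired analysis was possible because each group had 1 library and the labels give no replicate numbers.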

Other observations

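Over chromosomes 1 to 19, X and Y, 858 windows of 3 Mb held a median of 7 mTOR peaks. The window of the tRNA and histone arrays, with 61, shared the rank of 2 with chr17:33000001-36000000, behind chr10:78000001-81000000 with 64. By peaks of level 10 or more it ranked 1, with 32, and the next window, chr5:123000001-126000000, held 7. The windows of chromosomes 10 and 17 held 4 and 6 such peaks. They also held 134 and 73 ERRα peaks, against 25 in the window of the arrays, whose ERRα count had the rank of 340 among the 858. Of the 10 windows with the most mTOR peaks, the others held 59 to 134 ERRα peaks. The window was chosen with results of these data known, so these ranks are a description.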
